A study of Homo sapiens with 18 samples.

Results

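Prostaglandin synthesis and receptor genes were followed through 10 genes in the human ovarian carcinoma line SKOV-3: PLA2G4A, PTGS1, PTGS2, PTGES, PTGES2, PTGES3, PTGIS, PTGER2, PTGER4 and HPGD. The members are the probe sets that carry these symbols on Clariom S arrays, 10 probe sets of 21448 tested, and each gene had 1 probe set. The set was selected on cisplatin minus untreated signals of these same arrays, in which a high PTGS2 difference had been seen, so values after cisplatin are given as a description. Where members are counted past a threshold on that contrast, the count describes how they were chosen and is no test of them.

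All cells were SKOV-3 cells transiently transfected by liposomes with a pcDNA3 plasmid and kept in the same medium. SKOV-3-AA cells received HA-tagged PEA-15AA, in which both phosphorylation sites are alanine, so that it cannot be phosphorylated. SKOV-3-DD cells received HA-tagged PEA-15DD, in which both sites are aspartate, a phosphomimetic form, and SKOV-3-EV cells received the empty vector. PEA-15 is an adaptor protein that holds ERK1/2 in the cytoplasm, and the study asked how its phosphorylation bears on the response to cisplatin. From 24 h after transfection, cells of each kind received 15 µM cisplatin, which crosslinks DNA, for 24 h, or stayed untreated in medium. The titles of the untreated SKOV-3-EV samples name both medium and cis, while their treatment label reads untreated, and they were taken as untreated. Each of these 6 groups had 3 arrays, 18 in all. The groups are transient transfectants of 1 cell line, and no source used here gives the share of cells that carried a plasmid. No source used here says that the 3 replicates of a group were separate cultures, so each p-value reflects the spread among arrays only. In bulk RNA, fewer cells that express a gene and less RNA per cell cannot be told apart.

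Prostaglandins are made from arachidonic acid, which the cytosolic phospholipase A2 encoded by PLA2G4A releases from membranes. The cyclooxygenases COX-1 (PTGS1, usually constitutive) and COX-2 (PTGS2, induced by growth factors, cytokines and stress) turn it into prostaglandin H2. PTGES, PTGES2 and PTGES3 encode enzymes that can make prostaglandin E2 from it, and PTGIS makes prostacyclin. Prostaglandin E2 acts through receptors that include EP2 (PTGER2) and EP4 (PTGER4), which raise cyclic AMP, and HPGD begins its breakdown. COX-2 and prostaglandin E2 have been studied in many carcinomas for their part in growth, invasion and inflammation.

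The promoter windows of PTGS2 and PTGER4 are shown because these 2 members had the highest differences after cisplatin. They come from RefSeq on GRCh38.p14, run 5′ to 3′ over 300 bases, 250 before and 50 after the annotated start, and have matches to the searched motifs in capitals. The PTGS2 window is chr1:186680374-186680673 on the minus strand, and the PTGER4 window is chr5:40679665-40679964 on the plus strand.
PTGS2: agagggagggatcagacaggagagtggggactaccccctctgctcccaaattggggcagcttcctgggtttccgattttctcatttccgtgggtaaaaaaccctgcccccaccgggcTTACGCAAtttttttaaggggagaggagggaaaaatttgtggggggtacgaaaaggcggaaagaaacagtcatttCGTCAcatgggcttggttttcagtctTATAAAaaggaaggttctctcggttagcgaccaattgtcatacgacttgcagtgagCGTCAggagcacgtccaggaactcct
PTGER4: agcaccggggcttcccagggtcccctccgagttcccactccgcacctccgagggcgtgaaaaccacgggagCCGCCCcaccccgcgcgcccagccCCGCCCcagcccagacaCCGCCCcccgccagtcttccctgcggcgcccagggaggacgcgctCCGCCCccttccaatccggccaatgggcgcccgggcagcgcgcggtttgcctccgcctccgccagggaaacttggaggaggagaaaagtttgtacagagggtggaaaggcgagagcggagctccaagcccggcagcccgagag
The motifs, searched on both strands, were CGTCA for the core of cyclic AMP response elements, TTNNGNAA for C/EBP, TATAAA for the TATA box, GGGCGG for SP1 and CACGTG for the E-box. The AP-1 motif TGANTCA was searched as well. The PTGS2 window held CGTCA with its first base 58 bases before and at base 25 after the start, TTACGCAA at 133 bases before it, read on both strands, and TATAAA at 32 bases before it. The PTGER4 window held CCGCCC, the reverse complement of GGGCGG, at 179, 155, 138 and 93 bases before the start, and no match to the other motifs. No capitals overlap between motifs in these windows. Of all 35116 RefSeq windows, 24.6% held CGTCA, 36.8% TTNNGNAA, 11.5% TATAAA, 45.0% GGGCGG, 7.26% CACGTG and 7.71% the AP-1 motif. The 9 members with a window had 13 windows in all. Of these members, 4 had CGTCA in at least 1 of their windows (PTGS2, PTGES3, PTGER2 and HPGD), 3 had TTNNGNAA, 2 had TATAAA (PTGS1 and PTGS2), 7 had GGGCGG, 2 had CACGTG and 0 had the AP-1 motif. The shares are per window and the member counts per gene, so they are not on the same scale. A match describes the letters only.

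The values are log2 signals as the authors deposited them. The median signal per array lay at 6.33 to 6.44 in cisplatin-treated and at 6.53 to 6.61 in untreated cells, and the median difference of all probe sets after cisplatin was 0.10 on the log2 scale. A probe set counts here as above background on an array where its signal exceeds the 95th percentile of that array's 612 negative control features, which lay at 6.80 to 7.62 in treated and at 6.30 to 6.95 in untreated cells. In treated SKOV-3-DD cells, replicates 2 and 3 stood farther from the group mean than any other array (root mean square log2 distance 0.305 and 0.311), and values without both are given beside the member values they move by over 1.5 times, and beside those of PTGS2, PTGES, PTGER4 and HPGD. For cell type markers, above background means a mean over all arrays above 7.04, the 95th percentile of all negative controls together. Of the epithelial and ovarian carcinoma markers, 7 of 11 measured were above background, among them EPCAM, KRT8 and KRT18, but CDH1, MUC16, WT1 and MSLN were not. The epithelial markers' summed level was 16.63 to 16.72 in treated and 16.59 to 16.77 in untreated cells (log2). It lay near that of KRT8 alone, with means of 16.33 treated and 16.09 untreated, so it says little about the other markers. PAX8 fell, with means of 8.07 in treated and 11.52 in untreated cells, and so did KRT19 (11.87 and 13.48). KRT7 (9.90 and 8.94), MUC1 (9.56 and 8.76) and KRT8 rose, and EPCAM and KRT18 did not pass. Of the leukocyte markers 2 of 7 were above background (PTPRC and CD68), with summed levels of 12.30 to 12.73 in treated and 12.61 to 13.06 in untreated cells. Of the fibroblast markers 1 of 7 was (COL1A2), with summed levels of 11.22 to 11.88 in treated and 12.29 to 13.05 in untreated cells. CD3E, CD14, DCN and LUM were among those not above background, and so were all 6 endothelial markers. The part of these markers in the results was not tested. The PEA15 probe set had a mean of 10.21 in treated SKOV-3-AA, 10.96 in treated SKOV-3-DD and 11.18 in treated SKOV-3-EV cells, and of 9.93, 10.76 and 10.25 in untreated cells in the same order. Its SKOV-3-DD arrays spread widely, from 9.59 to 12.21 untreated (SD 1.33) and from 10.53 to 11.63 treated (SD 0.59). In the other groups the SD was 0.11 to 0.30. No PEA15 contrast between transfections passed the test (limma, lowest adjusted p = 0.367), and no source used here says where its probes lie in relation to the plasmid, so it does not check the transfection labels.

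PTGS2, the inducible cyclooxygenase, had the highest difference of the members after cisplatin, in each transfection. Its log2 signal was 10.11, 10.24 and 10.12 in cisplatin-treated SKOV-3-AA cells, against 5.63, 5.54 and 5.79 in untreated ones. In SKOV-3-DD cells it was 10.26, 10.15 and 9.66 after cisplatin and 5.21, 5.14 and 5.26 without it. In SKOV-3-EV cells it was 10.16, 10.07 and 9.47 after cisplatin and 5.81, 5.46 and 5.97 without it. Every treated array lay above every untreated array, the lowest treated values were replicate 3 of SKOV-3-EV and replicate 3 of SKOV-3-DD, and the 3 transfections overlapped under treatment. The log2 difference was 4.50 in SKOV-3-AA, 4.82 in SKOV-3-DD and 4.15 in SKOV-3-EV cells (SE 0.19 each), and 5.06 in SKOV-3-DD without its treated replicates 2 and 3. Without cisplatin PTGS2 was above background on 0 of 9 arrays, against 9 of 9 treated arrays, so the fold is a bound. Measured against the background of the untreated arrays, PTGS2 was at least 10.2-fold higher after cisplatin in SKOV-3-AA, 9.93-fold in SKOV-3-DD and 9.17-fold in SKOV-3-EV cells. These bounds set the mean treated signal against the mean, over the untreated arrays, of the 95th percentile of negative controls.

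PTGS1, the other cyclooxygenase, lay close to background, with a difference that depended on the scaling. Over the 9 treated arrays its signal was 6.90 to 7.73 (median 7.06), and over the 9 untreated arrays 6.77 to 7.21 (median 7.02). The highest value came from replicate 2 of treated SKOV-3-EV cells, and both ranges overlapped almost wholly. The mean log2 difference was 0.092, with a 95% interval of -0.11 to 0.30, and it was 0.059 without treated SKOV-3-DD replicates 2 and 3. It was 0.29 with arrays centred on their medians and 0.37 with quantile normalization, both past an adjusted p of 0.05. In SKOV-3-DD it was -0.019, and -0.12 without treated replicates 2 and 3. PTGS1 was above background on 5 treated and 8 untreated arrays. PLA2G4A, the phospholipase that feeds both cyclooxygenases, was above background on 0 of 18 arrays, with signals of 4.49 to 5.45 (median 4.94) in treated and 3.76 to 5.20 (median 4.40) in untreated cells. These ranges overlapped, no fold is given, and the log2 difference was 0.31 in SKOV-3-AA, 0.32 in SKOV-3-DD and 0.85 in SKOV-3-EV cells (SE 0.26 each). In SKOV-3-AA it was 0.12 without untreated replicate 1 and 0.54 without treated replicate 1. In SKOV-3-DD it was 0.18 without treated replicate 1, 0.48 without treated replicate 3 and 0.58 without treated replicates 2 and 3. PTGS2 and PLA2G4A are neighbours on chromosome 1 in RefSeq, with 1 gene, PACERR, between them, for which the array had no annotated probe set.

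Of the 3 prostaglandin E synthase genes, on average over the transfections PTGES was higher after cisplatin, PTGES3 was lower and PTGES2 had no steady direction. PTGES, the membrane-bound enzyme that is usually induced with COX-2, had signals of 7.68, 7.38 and 7.64 in cisplatin-treated SKOV-3-AA cells, against 6.62, 6.83 and 6.47 in untreated ones. In SKOV-3-DD cells they were 7.53, 6.89 and 7.61 after cisplatin and 6.51, 7.13 and 6.59 without it, and in SKOV-3-EV cells 7.18, 6.80 and 7.59 after cisplatin and 6.05, 5.93 and 6.72 without it. Treated and untreated arrays did not overlap in SKOV-3-AA and SKOV-3-EV cells but did in SKOV-3-DD cells, where replicate 2 was low after cisplatin and high without it. The log2 difference was 0.92 in SKOV-3-AA, 0.60 in SKOV-3-DD and 0.96 in SKOV-3-EV cells (SE 0.24 each), and 0.78 in SKOV-3-DD without its treated replicates 2 and 3. The SKOV-3-DD value missed an adjusted p of 0.05 as deposited and was past it after centring (0.77) and quantile normalization (0.81). PTGES was above background on 6 of 9 treated and 4 of 9 untreated arrays, among them 1 of 3 in each of the SKOV-3-EV groups. The background itself lay higher in treated cells. The share of an array's negative controls below PTGES was 96.1% to 96.7% in treated and 93.6% to 95.1% in untreated SKOV-3-AA cells. In SKOV-3-DD cells it was 92.5% to 96.4% treated and 94.1% to 95.4% untreated. In SKOV-3-EV cells it was 93.5% to 94.9% treated and 92.5% to 94.9% untreated, so PTGES hardly moved against background there.

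PTGES3 encodes p23, a cochaperone of HSP90 that also has prostaglandin E synthase activity. Its signal was 14.30, 14.27 and 14.20 in treated SKOV-3-AA cells, against 14.93, 14.85 and 14.99 in untreated ones. It was 14.22, 14.26 and 14.15 in treated and 14.91, 14.90 and 14.93 in untreated SKOV-3-DD cells, and 14.22, 14.27 and 14.52 in treated and 14.87, 14.93 and 14.85 in untreated SKOV-3-EV cells. All 9 treated arrays lay below all 9 untreated arrays, and replicate 3 of treated SKOV-3-EV cells was the highest of the treated ones. The mean log2 difference was -0.64 (SE 0.06), or 1.56-fold lower. RefSeq lists PTGES3 pseudogenes, whose share in this signal was not tested. PTGES2, the third prostaglandin E synthase gene, had 8.25 to 8.87 (median 8.66) in treated and 8.49 to 8.83 (median 8.66) in untreated cells, a mean log2 difference of -0.044 with a 95% interval of -0.22 to 0.13. Its ranges overlapped, it was above background on all 18 arrays, and its direction turned under other scalings, to 0.15 with arrays centred on their medians and 0.25 with quantile normalization, and to 0.048 without treated SKOV-3-DD replicates 2 and 3.

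PTGIS, which makes prostacyclin, had the lowest difference of the members. Its signal was 10.61, 10.33 and 10.96 in treated SKOV-3-AA cells, against 13.18, 12.91 and 12.86 in untreated ones. It was 10.55, 10.47 and 10.84 in treated and 12.82, 12.99 and 12.55 in untreated SKOV-3-DD cells, and 10.65, 10.03 and 10.90 in treated and 12.42, 12.73 and 12.26 in untreated SKOV-3-EV cells. The treated and untreated arrays did not overlap, and every array was above background. The log2 difference was -2.35 in SKOV-3-AA, -2.17 in SKOV-3-DD and -1.94 in SKOV-3-EV cells (SE 0.21 each), which is 5.10-fold, 4.49-fold and 3.85-fold lower after cisplatin.

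**Figure D1:**
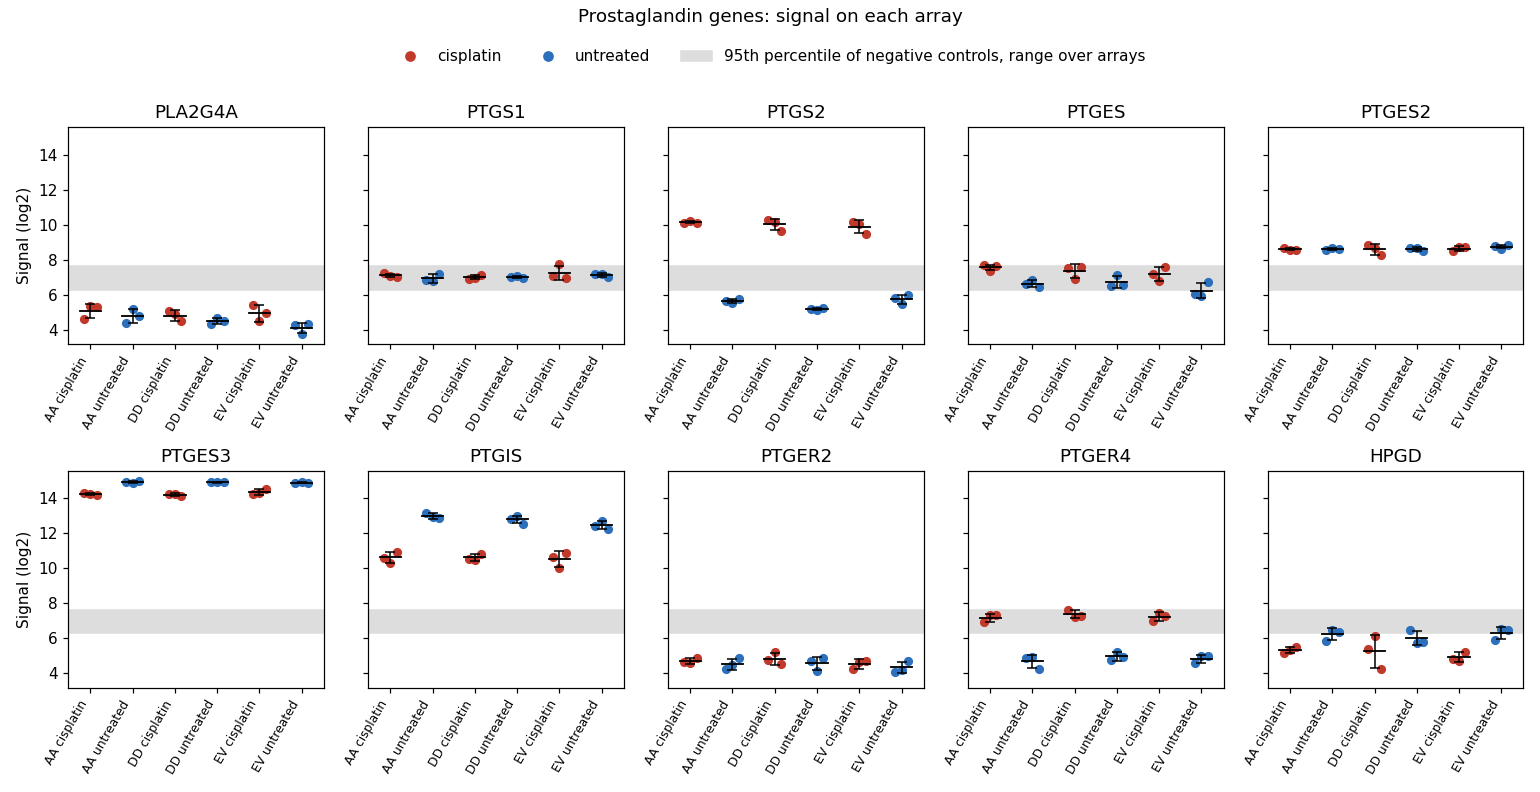
Signal of each prostaglandin gene (log2, vertical axis) in the 6 groups, with 1 point per array, and the mean ± SD of the 3 arrays as bars. The grey band spans the 95th percentile of the negative controls, 6.30 to 7.62 over the arrays: untreated PTGS2 and PTGER4 lie below it, PLA2G4A and PTGER2 lie below it in all groups, and PTGIS and PTGES3 lie above it.

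Of the 2 receptor genes, PTGER4 (EP4) differed after cisplatin and PTGER2 (EP2) stayed within background. PTGER4 had 6.91, 7.31 and 7.33 in treated SKOV-3-AA cells, against 4.91, 4.91 and 4.24 in untreated ones. It had 7.63, 7.22 and 7.27 in treated and 4.75, 5.23 and 4.94 in untreated SKOV-3-DD cells, and 6.96, 7.45 and 7.27 in treated and 4.58, 4.97 and 4.98 in untreated SKOV-3-EV cells. All treated arrays lay above all untreated arrays, but only 5 of 9 treated arrays were above background, and 0 of 9 untreated. The log2 difference was 2.49 in SKOV-3-AA, 2.40 in SKOV-3-DD and 2.39 in SKOV-3-EV cells (SE 0.20 each). In SKOV-3-DD it was 2.66 without treated replicates 2 and 3. Of the treated arrays above background, 2 were of SKOV-3-AA, 2 of SKOV-3-DD and 1 of SKOV-3-EV cells, so no fold is given. PTGER2 had 4.24 to 5.22 (median 4.68) in treated and 4.09 to 4.86 (median 4.47) in untreated cells, above background on 0 of 18 arrays, and no fold is given.

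HPGD, the dehydrogenase that inactivates prostaglandin E2, had lower signals after cisplatin, at or near background. In SKOV-3-AA cells it had 5.17, 5.32 and 5.49 with cisplatin, against 5.87, 6.51 and 6.34 without it. In SKOV-3-DD cells it had 5.37, 6.15 and 4.25 with cisplatin and 6.46, 5.74 and 5.81 without it, and in SKOV-3-EV cells 4.83, 4.74 and 5.23 with and 5.91, 6.51 and 6.46 without it. The groups overlapped in SKOV-3-DD cells, where treated replicate 2 was high and replicate 3 low, and in neither of the other transfections. The log2 difference was -0.91 in SKOV-3-AA, -0.74 in SKOV-3-DD and -1.36 in SKOV-3-EV cells (SE 0.34 each). In SKOV-3-DD it was -1.19 without treated replicate 2, -0.24 without treated replicate 3 and -0.64 without both. HPGD was above background on 0 treated arrays and 1 untreated array, so no fold is given.

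Over the 3 transfections together, 4 of the 10 members (PTGS2, PTGER4, PTGES and PLA2G4A) had an adjusted p under 0.05 as higher and 3 (PTGIS, HPGD and PTGES3) as lower. Over all probe sets 36.5% passed as higher and 28.7% as lower. Of the 4 higher members, PLA2G4A lay within background on every array. PTGES lay near a background that was itself higher in treated cells. With arrays centred on their medians, 6 members passed as higher and 3 as lower, against 56.1% and 23.4% of all probe sets. Within a transfection, 6 members passed in SKOV-3-AA, 4 in SKOV-3-DD and 7 in SKOV-3-EV cells, where 45.3%, 42.8% and 50.5% of all probe sets did. At the study's own thresholds, 2-fold or more with p under 0.05 before adjustment, 4 members passed (PTGS2, PTGER4, PTGIS and HPGD), against 18.6% of all probe sets. All 9 treated arrays lay apart from all 9 untreated arrays for 4 members (PTGS2, PTGER4, PTGES3 and PTGIS), against 31.3% of all probe sets. The members' median log2 difference was 0.15, against 0.10 over all probe sets. Because PTGS2 and this contrast guided the choice of the members, these counts are read for nothing further. The members nearest that threshold for the mean difference were PLA2G4A inside it, at 0.49 (SE 0.15), and PTGER2 outside it, at 0.21 (SE 0.13).

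**Figure D2:**
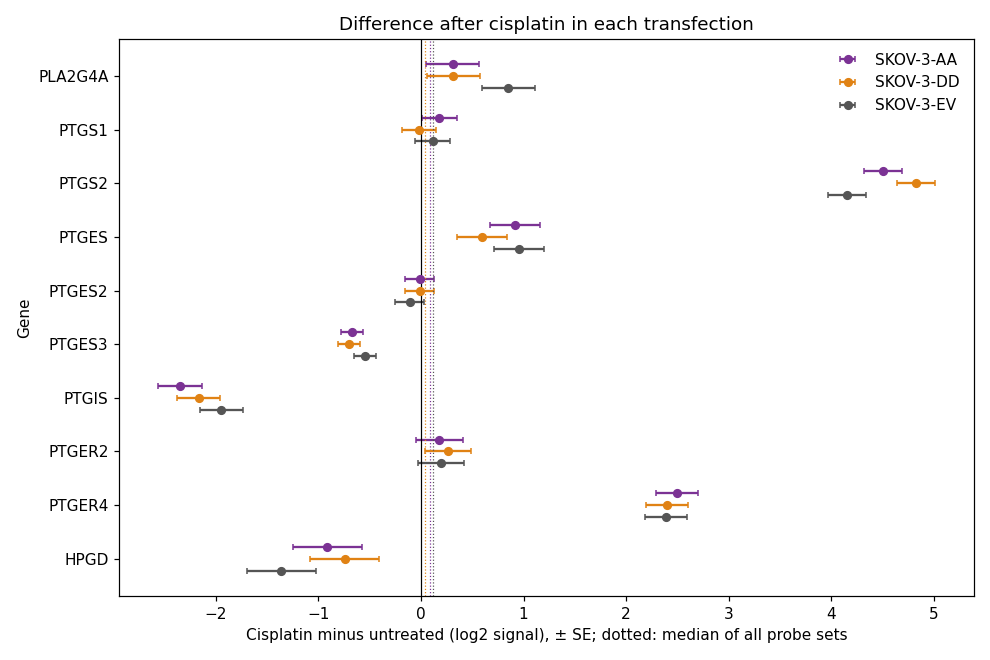
Cisplatin minus untreated log2 signal (horizontal axis, ± SE from the fit over 18 arrays) for each gene in SKOV-3-AA, SKOV-3-DD and SKOV-3-EV cells, with dotted lines at the median of all probe sets. PTGS2 (4.15 to 4.82) and PTGER4 (2.39 to 2.49) lie at the right and PTGIS (-2.35 to -1.94) at the left in each transfection.

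Between transfections, which did not guide the choice of the members, no member passed the test. In limma, 0 of 60 differences among SKOV-3-AA, SKOV-3-DD and SKOV-3-EV cells, untreated or under cisplatin, reached an adjusted p under 0.05, and 4 had an unadjusted p under 0.05. The differences ran between -0.54 and 0.68 on the log2 scale, the lowest adjusted p was 0.557, and the largest 95% bound was 1.23. Over all probe sets, 0% passed the adjusted p in each of the 9 contrasts below, so the unadjusted shares give the background. Among untreated cells the share with an unadjusted p under 0.05 was 3.09% for SKOV-3-AA minus SKOV-3-EV, 5.47% for SKOV-3-DD minus SKOV-3-EV and 3.99% for SKOV-3-AA minus SKOV-3-DD. Under cisplatin it was 12.5%, 7.79% and 6.98% for the same comparisons, in which 0 members had an unadjusted p under 0.05.

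The untreated level of PTGS2 was the lowest in SKOV-3-DD cells. Its mean was 5.65 ± 0.13 in SKOV-3-AA, 5.20 ± 0.06 in SKOV-3-DD and 5.74 ± 0.26 in SKOV-3-EV cells (SD, n = 3 each), and the SKOV-3-DD arrays lay below those of both others, while SKOV-3-AA and SKOV-3-EV overlapped. SKOV-3-DD minus SKOV-3-EV was -0.54 (SE 0.19, limma unadjusted p = 0.0093, adjusted p = 0.829), and SKOV-3-AA minus SKOV-3-DD was 0.45 (SE 0.19, limma adjusted p = 1.00). All of these values lay below the 95th percentile of the negative controls. PTGIS was at 12.98 ± 0.17 in untreated SKOV-3-AA cells, 12.78 ± 0.22 in SKOV-3-DD and 12.47 ± 0.24 in SKOV-3-EV cells, and SKOV-3-AA minus SKOV-3-EV was 0.51 (SE 0.21, limma adjusted p = 1.00). The SKOV-3-AA and SKOV-3-EV arrays did not overlap, and SKOV-3-DD overlapped with both. PLA2G4A, within background, had 4.40, 5.20 and 4.77 in untreated SKOV-3-AA cells, against 4.25, 3.76 and 4.31 in SKOV-3-EV cells, a log2 difference of 0.68 (SE 0.26, limma adjusted p = 1.00). For PTGES, SKOV-3-DD minus SKOV-3-EV was 0.51 in untreated cells, with a 95% interval of -0.0034 to 1.02, and it was 0.31 without untreated SKOV-3-DD replicate 2 and 0.75 without untreated SKOV-3-EV replicate 3.

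The difference in cisplatin response between transfections was tested as a contrast of contrasts. In limma 0 of 30 member contrasts passed an adjusted p under 0.05 and 1 had an unadjusted p under 0.05, against 6.9% of all probe sets for SKOV-3-AA minus SKOV-3-EV, 7.59% for SKOV-3-DD minus SKOV-3-EV and 4.7% for SKOV-3-AA minus SKOV-3-DD. That 1 was PTGS2, whose difference after cisplatin in SKOV-3-DD exceeded that in SKOV-3-EV cells by 0.67 (SE 0.26, 95% interval 0.12 to 1.22, limma adjusted p = 0.586), and 0.90 without the treated SKOV-3-DD replicates 2 and 3 (limma adjusted p = 0.422). Under cisplatin PTGS2 in SKOV-3-DD minus SKOV-3-EV was 0.13 (limma adjusted p = 0.943), and 0.36 without the treated SKOV-3-DD replicates 2 and 3. With all arrays, most of the 0.67 was the untreated difference of -0.54, between signals within background. Counted from background, as in the bounds above, the differences were at least 3.31 in SKOV-3-DD and 3.20 in SKOV-3-EV cells on the log2 scale. For PTGER4, also within background when untreated, the same contrast was 0.012, with a 95% interval of -0.59 to 0.62, and 0.27 without the treated SKOV-3-DD replicates 2 and 3. For PTGIS it was -0.22, with an interval of -0.85 to 0.41. The widest member interval reached 1.62, for HPGD, so a difference up to that size was not excluded for it. These contrasts share the arrays of SKOV-3-AA, SKOV-3-DD or SKOV-3-EV cells and are not independent of each other.

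**Figure D3:**
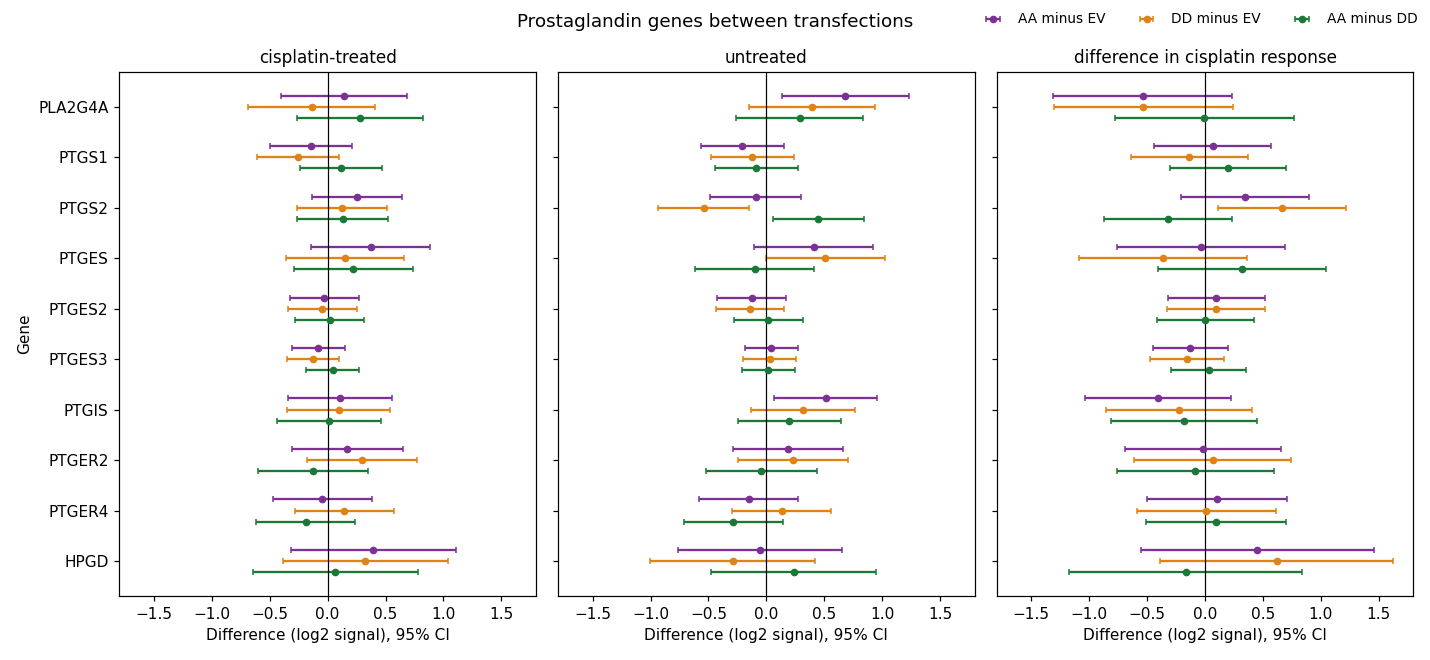
Differences between transfections (log2 signal, horizontal axes, with 95% intervals) for each gene in cisplatin-treated cells, in untreated cells and as the difference in cisplatin response. The untreated PTGS2 interval for SKOV-3-DD minus SKOV-3-EV (-0.93 to -0.15) and the response interval (0.12 to 1.22) exclude 0 before adjustment, and 0 of 60 and 0 of 30 member contrasts reached an adjusted p under 0.05.

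Other genes of the pathway were placed in 6 lists by function, and the counts are of genes at an adjusted p under 0.05 over all probe sets, to be read beside the 36.5% higher and 28.7% lower of all probe sets. Of 84 genes measured among 96 listed, 25 rose, 35 fell and 24 did not pass, with a median log2 difference of -0.054. Of these, 14 of the 25 higher and 28 of the 35 lower genes were above background. For listed genes this means a mean signal, in the treatment where it was higher, above 7.04, the 95th percentile of all negative controls together. The shares over all probe sets include dim ones, and none was counted over probe sets above background alone. The counts of genes above background, here and in each list, therefore have no share to be read beside. With arrays centred on their medians the split was 39 higher and 29 lower, with a median of 0.14, where 56.1% of all probe sets were higher and 23.4% lower, with a median of 0.30. Of 12 other prostanoid synthase and reductase genes, 1 rose, 8 fell and 3 did not pass, with a median of -0.50, and the 1 higher and 7 of the 8 lower genes were above background. PTGR1, a reductase that breaks down prostaglandins and leukotriene B4, rose, with 12.20 to 12.47 in treated and 11.66 to 11.91 in untreated cells (log2 difference 0.53, SE 0.07). AKR1C3, which makes prostaglandin F2α and also acts on steroids, fell, with 10.88 to 11.86 in treated and 12.94 to 13.27 in untreated cells (-1.84, SE 0.11). AKR1C1 and AKR1C2 are related to AKR1C3 in sequence, and probes of these genes may share signal. AKR1C1 fell by 0.34 (SE 0.11) and AKR1C2 by 0.64 (SE 0.12). CBR1, a carbonyl reductase that can reduce prostaglandin E2, fell by 0.93 (SE 0.07), and PTGR3 fell by 0.68 (SE 0.13).

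Of 9 other prostanoid receptor and transporter genes, 4 rose, 1 fell and 4 did not pass, with a median of 0.11. The 1 gene above background was ABCC4, an efflux pump that can export prostaglandins, which fell to 7.96 to 8.95 in treated cells, against 9.77 to 10.09 in untreated cells (-1.63, SE 0.09). The other 8, among them the thromboxane receptor gene TBXA2R and the uptake transporter gene SLCO2A1, had means within background in both treatments. Of 18 other phospholipase and arachidonate handling genes, 3 rose, 8 fell and 7 did not pass, with a median of -0.16, and 1 of the 3 and 5 of the 8 were above background. PLA2G12A, a secreted phospholipase A2, rose by 0.92 (SE 0.09), with 9.38 to 10.14 in treated and 8.64 to 8.99 in untreated cells. PLAAT3, a phospholipase A, fell by 1.36 (SE 0.10). MGLL, which acts on the arachidonic acid ester of glycerol, fell by 1.21 (SE 0.09), and LPCAT3, which puts arachidonic acid into phospholipids, fell by 0.75 (SE 0.10).

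Of 11 lipoxygenase and leukotriene genes, 5 rose, 0 fell and 6 did not pass, with a median of 0.21. ALOX5AP, which presents arachidonic acid to 5-lipoxygenase, was the 1 riser above background, at 0.38 (SE 0.14, limma adjusted p = 0.024). Its treated arrays, at 8.55 to 10.16, overlapped the untreated ones, at 8.47 to 9.16, and the call was lost on leaving out any of 5 single arrays. ALOX5 itself lay within background, with 3.32 to 3.78 in treated and 3.36 to 3.78 in untreated cells.

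Of 17 genes of EP2 and EP4 signalling through cyclic AMP, 4 rose, 11 fell and 2 did not pass, with a median of -0.76. Of these, 3 of the 4 higher and 8 of the 11 lower genes were above background. GNAS, which encodes the stimulatory G protein α subunit these receptors couple to, rose by 0.60 (SE 0.07), GRK2, a receptor kinase, by 0.59 (SE 0.14), and PRKAR1A, a regulatory subunit of protein kinase A, by 0.28 (SE 0.09). CREB1, the transcription factor that protein kinase A phosphorylates, fell to 9.77 to 10.19 in treated cells, against 11.83 to 12.09 in untreated cells (-1.97, SE 0.07). ARRB1, an arrestin of receptor desensitisation, fell by 1.92 (SE 0.10), and PRKAR2B, another regulatory subunit, fell by 1.07 (SE 0.09). ARRB1 and the regulatory subunits are known to limit this signalling, so the list holds activators and inhibitors.

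Of 18 genes known to regulate PTGS2 transcription or mRNA stability, 8 rose, 8 fell and 2 did not pass, with a median of -0.02. ZFP36 (tristetraprolin), which binds AU-rich elements and promotes mRNA decay, rose, with 9.61 to 10.28 in treated and 7.11 to 8.22 in untreated cells (2.27, SE 0.11). Its relative ZFP36L2 rose by 1.96 (SE 0.10), and CEBPB, a C/EBP transcription factor, by 1.50 (SE 0.11). CELF2, which binds PTGS2 mRNA, fell by 1.63 (SE 0.15), and HNRNPD (AUF1), an AU-rich element binding protein, fell by 1.39 (SE 0.07), beside CREB1, which is also on the cyclic AMP list. In contrasts between transfections and in differences of response, the lowest adjusted p over these 6 lists was 0.149 (limma, for ACSL4), so 0 passed.

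**Figure D4:**
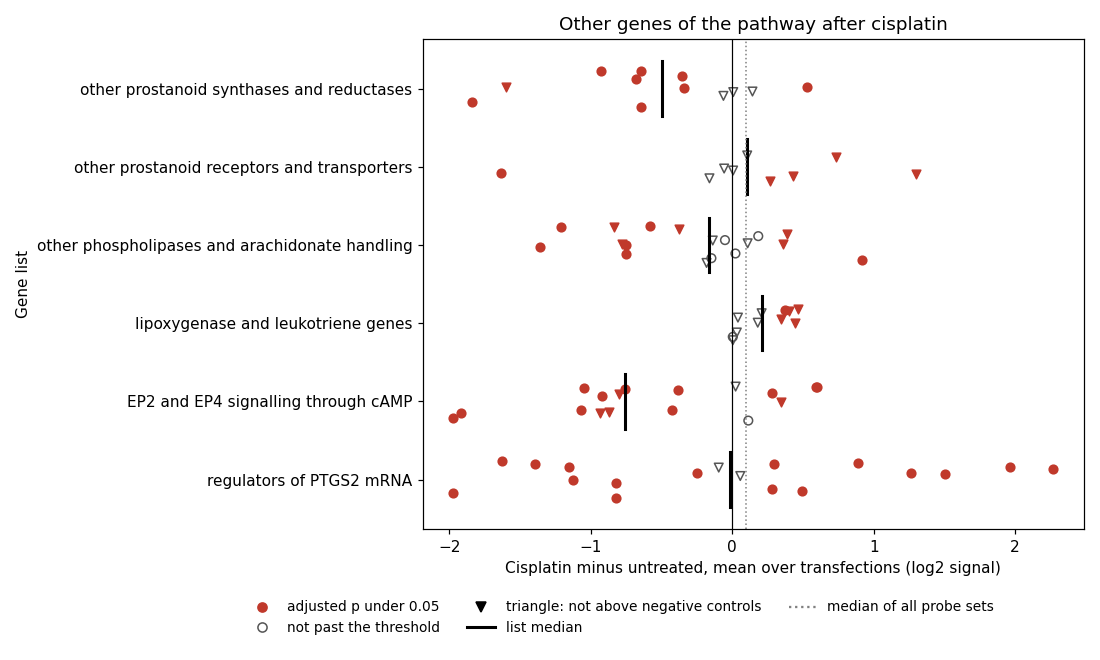
Cisplatin minus untreated log2 signal, mean over transfections (horizontal axis), of each gene in the 6 other pathway lists (rows). Filled symbols passed an adjusted p under 0.05, triangles were not above negative controls in either treatment, black bars mark list medians (-0.76 for the cyclic AMP list, 0.21 for the lipoxygenase list) and the dotted line marks 0.10, the median of all probe sets.

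Over all genes, the difference after cisplatin moved with genomic span. With 17687 genes in 10 equal bins of genomic span, taken from RefSeq, the median log2 difference was 0.24 in the shortest bin, 0.27 in the next and -0.80 in the longest. PTGS2 spans 8.63 kb, in a bin with a median of 0.25, and PTGES2, with 7.75 kb and a difference of -0.044, is in the same bin. PTGER4 (66.9 kb) and PTGIS (64.3 kb) share a bin with a median of -0.31, and their differences were 2.43 and -2.15. PLA2G4A, the longest member at 160.0 kb, is in the last bin, with a difference of 0.49. HPGD (32.7 kb) and PTGES3 (24.9 kb) are in bins with medians of 0.09 and 0.20 and had differences of -1.01 and -0.64. The part of gene length in these values was not tested.

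**Figure D5:**
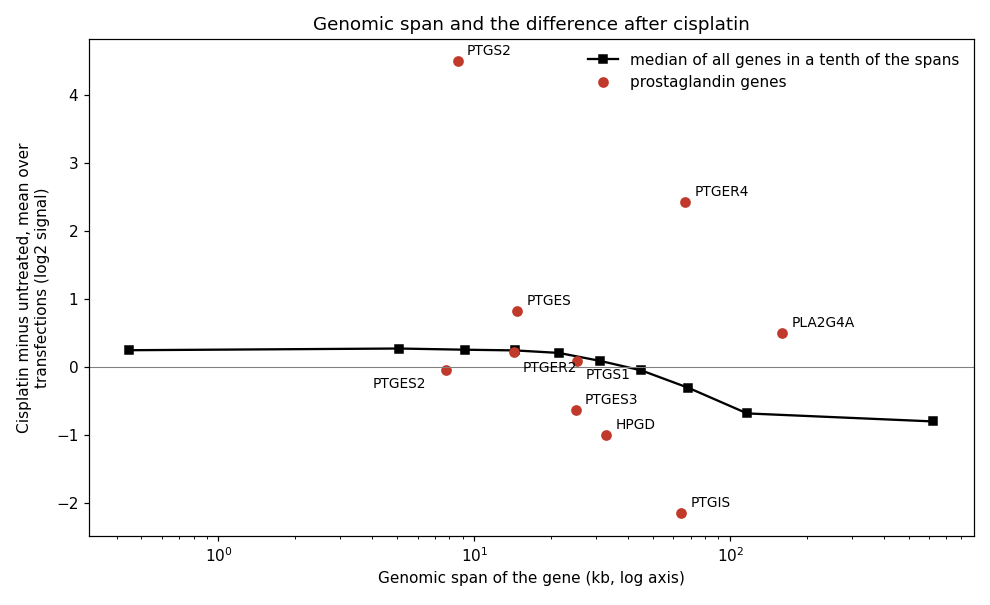
Cisplatin minus untreated log2 signal, mean over transfections (vertical axis), against genomic span in kb (horizontal log axis) for the 10 prostaglandin genes (red points) and as the median of all genes in each of 10 bins (black squares, at the geometric middle of each bin). The bin medians run between 0.27 and -0.80, and PTGS2 (4.49) and PTGER4 (2.43) lie above and PTGIS (-2.15) below the line.

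Genes whose pattern over the 18 arrays was most like that of 3 members were ranked by Pearson's r among 17686 genes, as a description in which the split between treated and untreated arrays is shared by all. For PTGS2 they were CITED2, PPIF, PMAIP1, ATF3 and TRIB1, each at an r of 0.996, with log2 differences after cisplatin of 3.44, 2.62, 4.69, 5.34 and 3.53. PMAIP1 encodes the BH3-only protein NOXA and ATF3 a stress-induced transcription factor. For PTGER4 they were CA2 (0.985), CDK5R1 (0.984), HEXIM1 (0.983), SGK1 and RXYLT1 (0.982 each). For HPGD, with a narrower range, they were AP1M1 (0.941), HP1BP3 (0.890), MAP2K2 (0.880), SDC1 (0.878) and GLB1L2 (0.876). After the 6 group means were subtracted the genes most like PTGS2 were USP17L10 (0.889), MAGI3 (0.872), CLK3 (0.870), MGAT4B (0.855) and MT1E (0.854). Those most like PTGER4 were then MYO7A (0.862), SOX14 (0.810), ADCK1 (0.802), GPR101 (0.794) and C9orf152 (0.779). Those most like HPGD were PYGB (0.932), UBE2E1 (0.896), AP1M1 and ORMDL2 (0.890 each) and ATP5ME (0.886), so AP1M1 was the 1 gene on both lists of a member. HPGD was above background on 0 treated arrays and 1 untreated array. Its SD was 0.95 in treated SKOV-3-DD cells, where replicates 2 and 3 had 6.15 and 4.25, against 0.16 to 0.40 in the other groups. The part of these arrays in the HPGD rankings was not tested.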

How the data were processed

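The authors deposited 1 table of log2 signals per probe set and array, which they summarised and normalized by SST-RMA with Transcriptome Analysis Console 4.1. No source used here names the genome build behind the probe annotation. Of 24351 features, 2903 controls were not tested, which left 21448 probe sets, 17709 with a gene symbol in the platform annotation, and the table held 0 further columns. Where a symbol had several probe sets, the one with the highest mean was used. Values were used as deposited.

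A single limma model (version 3.58.1, R 4.3.3) had 1 mean per group over all 18 arrays (12 residual degrees of freedom), and p-values were adjusted by Benjamini and Hochberg over all 21448 probe sets. The number of arrays limits the precision: pairwise differences had a median standard error of 0.178. "Rose" and "fell" are used for an adjusted p under 0.05. The 10 members and the gene lists were chosen with earlier results of these data known. Named genes are all members, up to 3 highest and 3 lowest differences per list among genes that passed and were above the 95th percentile of negative controls, and the 5 most alike per likeness ranking. Other genes, such as TBXA2R, SLCO2A1, ALOX5, ACSL4 and the cell type markers, were named after their values were seen. Replicate numbers were checked for pairing: same-numbered arrays of different groups had correlations of their deviations between -0.05 and 0.18, over 45 pairs, so the numbers were not used as pairs. Alternatives were other scalings, filters on dim probe sets, limma's trend and robust options, array weights, a replicate block, only the groups compared, the study's thresholds and leaving out each array. Leaving aside 2 arrays together was added after seeing the data. Figures were drawn with matplotlib 3.10.9.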

Additional observations from a re-analysis of the deposited data

How the results depend on the processing

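Signals near the negative controls limit PLA2G4A, PTGER2, HPGD, PTGS1, PTGES, PTGER4 in both treatments and untreated PTGS2, and 3 arrays per group limit every contrast. PTGS2, PTGER4, PTGES3 and PTGIS kept their direction and their side of the adjusted threshold in each transfection under every alternative that retained them and used that threshold. PTGES3 did not reach the study's 2-fold threshold, at -0.67 in SKOV-3-AA, -0.70 in SKOV-3-DD and -0.54 in SKOV-3-EV cells. Of 10 members, those passing in SKOV-3-EV cells numbered 7, against 4 without probe sets under the median, a filter that removes some of them, and 4 at the study's thresholds. In SKOV-3-AA cells 3 passed at the study's thresholds in place of 6. Over the transfections 2 members were higher, in place of 4, under that filter and at the study's thresholds. Other pathway genes called higher numbered 25, but 39 with arrays centred on their medians, 14 without probe sets under the median and 5 at the study's thresholds, and those called lower numbered 35, but 13 at the study's thresholds. Over all probe sets the median difference after cisplatin was 0.10, but 0.30 after centring and 0.04 after quantile normalization.

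The direction of PTGES2 and PTGS1, whose differences lie near 0, turned with the scaling. Centring gave PTGES2 0.20 for SKOV-3-AA, 0.16 for SKOV-3-DD, 0.10 for SKOV-3-EV and 0.15 on average, and PTGS1 0.16 in SKOV-3-DD. Quantile normalization gave PTGES2 0.27, 0.24, 0.24 and 0.25 in the same order, PTGS1 0.23 in SKOV-3-DD and PTGER2 -0.029 in SKOV-3-EV. Array weights gave PTGES2 0.20 in SKOV-3-DD and 0.019 on average, and leaving aside treated SKOV-3-DD replicates 2 and 3 gave it 0.26 and 0.048, with the lone remaining array of that group assumed to vary like the other groups. On average over the transfections, PTGS1 passed after centring (0.29) and quantile normalization (0.37), PTGER2 after centring (0.41) and PTGES2 after quantile normalization. PTGES in SKOV-3-DD passed after centring (0.77), quantile normalization (0.81) and array weights (0.77) and, at an unchanged 0.60, under both filters on dim probe sets. PLA2G4A in SKOV-3-EV no longer passed after quantile normalization (0.65). The cause was not tested.

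Leaving out each of the 18 arrays in turn, PTGES2 ran between -0.055 and 0.019 for SKOV-3-AA, -0.15 and 0.16 for SKOV-3-DD, and -0.090 and 0.013 on average. PTGS1 ran between -0.078 and 0.032 in SKOV-3-DD and -0.12 and 0.25 in SKOV-3-EV. The number of members passing was 5 to 6 for SKOV-3-AA, 4 to 6 for SKOV-3-DD and 6 to 7 for SKOV-3-EV, with 4 higher and 3 lower on average throughout. HPGD in SKOV-3-AA no longer passed without treated replicate 1 (-0.83) or 2 (-0.91), or untreated replicate 2 (-0.78) or 3 (-0.86), nor after centring (-0.70) or quantile normalization (-0.86). In SKOV-3-DD it passed without treated replicate 2 (-1.19). PLA2G4A in SKOV-3-EV no longer passed without treated replicate 1 (0.61) or untreated replicate 2 (0.68). PTGES in SKOV-3-DD passed without its treated replicate 2 (0.82) or untreated replicate 2 (0.79), and, at an unchanged 0.60, without treated SKOV-3-EV replicate 2 or 3 or untreated SKOV-3-EV replicate 3, which enter the shared spread. ALOX5AP no longer passed without treated SKOV-3-EV replicate 1 (0.30), treated SKOV-3-AA replicate 3 (0.33), treated SKOV-3-DD replicate 2 (0.30), untreated SKOV-3-EV replicate 3 (0.34) or untreated SKOV-3-AA replicate 3 (0.33). Between transfections 0 of 60 member contrasts and 0 of 30 response contrasts passed under each alternative run. With the replicate number as a block, 7 members passed in SKOV-3-EV cells, as without it, and the block changed no call. The mean over transfections has no value from a fit of only the groups compared.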
